A study of Homo sapiens with 9 samples.

Results

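The empty-vector line of a study of APC in SW480 cells was compared with the parental line it was made from. The comparison used 6 of the 9 RNA sequencing libraries of the series, namely all 3 libraries labelled CONTROL and all 3 labelled SW480, and a gene was represented by its transcript with the highest total count. SW480 is a human colorectal cancer cell line that, per the series title, is defective in APC. The series also holds a line with restored APC (group APC, SW480 with pEF carrying myc-tagged APC), whose values appear below only beside those of both other groups. CONTROL is the line the labels call R38.7, SW480 with the pEF vector and no insert, and it was kept in G418 at 1.5 mg/ml, as was the APC line. Parental SW480 received no G418. Both groups were plated at the same density on 100 mm plates and harvested after 72 h. The APC line was plated at a lower density, in the ratio of 2 to 3.35, and in its values density and APC cannot be told apart. Each group is 1 line plated in triplicate, and p-values therefore measure only the spread between plates. The passage through selection and derivation as a line, the vector and the G418 in the medium all separate CONTROL from SW480 and cannot be told apart.

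An empty-vector line is the usual reference against which a re-expressed gene is read, because it has gone through the same transfection, selection and culture. APC holds together the proteins that label beta-catenin for degradation, and cells without it keep transcription of Wnt target genes high. G418 is an aminoglycoside that interferes with translation on eukaryotic ribosomes and is tolerated by cells that carry a resistance gene.

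Total counts over genes ran from 16456738 to 19358025 per library in the 6 libraries. Levels are given as CPM, counts relative to library size, scaled between libraries by the trimmed mean of M values (TMM), and 3 counts corresponded to 0.156 to 0.184 CPM. Log2 CPM correlated across genes at 0.995 to 0.996 within SW480 and within CONTROL, and at 0.980 to 0.982 between the groups. The biological coefficient of variation was 3.56%. APC transcript itself had overlapping ranges, with 46.6, 49.6 and 51.5 CPM in SW480 against 48.1, 46.3 and 49.4 CPM in CONTROL.

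Of 14255 genes tested, 3611 (25.3%) were higher and 3520 (24.7%) lower in CONTROL at an adjusted p under 0.05 (edgeR quasi-likelihood test), together 50% of the genes. Most of these differences were small. The median size of a called change was 0.32 on the log2 scale, and 3536 called genes, 49.6%, had a fitted change under 1.25-fold. Past 2-fold, 239 genes (1.68%) were higher and 459 (3.22%) lower. All 3 CONTROL libraries lay outside the range of the SW480 libraries for 8074 genes (56.6%), above it for 28.5% of the genes and below it for 28.2%. The median over all genes was −0.01. In 5 groups of equal size by mean level it ran from −0.18 in the lowest (up to 3.98 CPM) through −0.05, −0.02 and 0.02 to 0.06 in the highest, so low genes leaned towards lower values in CONTROL and abundant genes towards higher values. Groups formed by transcript length had medians between −0.02 and 0.03. In bulk RNA, fewer cells that express a gene and less RNA per cell cannot be told apart.

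Levels below are those of replicates 1, 2 and 3 of a group in that order, and numbers in brackets after them are log2 fold changes, CONTROL minus SW480. Where a standard error (SE) is not printed, it was between 0.0345 and 0.218, with a median of 0.0513, for the named called genes with at least 10 CPM in the higher group, and between 0.111 and 0.676 for those below it. Each gene said to be higher or lower in CONTROL, or to have risen or fallen, passed the adjusted p threshold of 0.05 in edgeR. Counts of higher and lower members of any list below stand beside 25.3% and 24.7% of all genes. Statements that the libraries of a gene did not overlap stand beside 56.6% of all genes.

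Among genes with a mean of at least 10 CPM in the higher group, G0S2, which encodes an inhibitor of the lipase ATGL, had the largest fitted rise. It stood at 2.53, 1.45 and 1.99 CPM in SW480 against 23.7, 25.2 and 24.2 CPM in CONTROL, a log2 fold change of 3.61 (SE 0.12, edgeR adjusted p = 7.4e-23). RYR2, an intracellular calcium release channel gene, was measured at 1.08, 1.77 and 0.967 CPM in SW480 against 14.98, 13.02 and 13.8 CPM in CONTROL and rose by 3.45. CDK15, a cyclin-dependent kinase gene, stood at 9.85, 10.1 and 8.65 CPM in SW480 against 87.4, 80.7 and 84.6 CPM in CONTROL, a rise of 3.14. For each of these 3 genes the APC line lay below CONTROL, at 7.70, 7.35 and 7.13 CPM for G0S2, 1.81, 1.56 and 1.23 CPM for RYR2 and 12.1, 14.9 and 14.5 CPM for CDK15. UST, a uronyl sulfotransferase gene, was high in both transfected lines, with 1.78, 1.29 and 1.18 CPM in SW480, 13.8, 10.7 and 11.1 CPM in CONTROL and 19.5, 18.2 and 18.2 CPM in the APC line. PAPPA, a protease that cleaves IGF-binding proteins, was high in CONTROL alone, at 1.62, 1.45 and 1.66 CPM in SW480 against 13.6, 11.7 and 12.9 CPM in CONTROL and 1.37, 0.925 and 1.69 CPM in the APC line.

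The other genes with the largest rises were IFI27, SLC7A11, MAGEC2, FAM129A and SAA2, with log2 fold changes of 2.08, 2.05, 1.91, 1.86 and 1.84. FAM129A, a stress-related gene also called Niban, stood at 11.4, 12.4 and 10.4 CPM in SW480 against 41.7, 40.9 and 41.8 CPM in CONTROL. SAA2, an acute phase apolipoprotein gene, stood at 37.7, 35.2 and 33.9 CPM in SW480 against 126, 127 and 129 CPM in CONTROL and at 721, 783 and 769 CPM in the APC line. By absolute difference in CPM the leading genes were NELF (log2 fold change 0.70), HSP90AA1 (0.36), FTL (0.64), TUBA1B (0.38) and NPM1 (0.35).

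On the other side, ROBO1, the receptor for Slit guidance proteins, was nearly lost. Its values were 12.7, 12.4 and 12.9 CPM in SW480 against 0.268, 0.246 and 0.0520 CPM in CONTROL, a log2 fold change of −6.04 (SE 0.22, edgeR adjusted p = 1.8e-21), and the APC line was also low, at 0.715, 0.578 and 0.818 CPM. GNAI1, an inhibitory G protein alpha subunit gene, stood at 29.1, 30.2 and 24.5 CPM in SW480 against 2.31, 2.03 and 1.87 CPM in CONTROL, a change of −3.75. LOC100507412, a gene known here only by its identifier, was measured at 122, 134 and 126 CPM in SW480 against 4.51, 4.73 and 4.001 CPM in CONTROL (−4.85). In all 3 of these genes, which were chosen for a large fall without overlap, the lowest parental value was several times the highest CONTROL value. UNC13A, which primes synaptic vesicles, VAT1L, and EDN3, an endothelin gene on chromosome 20, changed by −3.63, −3.35 and −3.14. CDH11, a mesenchymal cadherin gene, DPYSL3, a neuronal cytoskeleton regulator, and GABRA3, a GABA receptor subunit gene, changed by −3.08, −2.90 and −2.65.

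EHF, an epithelial ETS transcription factor gene, set the lines in a different order. It stood at 16.7, 18.0 and 17.2 CPM in SW480 against 2.42, 2.15 and 2.96 CPM in CONTROL (−2.77) and at 84.3, 86.8 and 84.3 CPM in the APC line, so CONTROL was the lowest of the 3 groups. By absolute CPM, the genes with the largest falls were RNA45S5, KRT5, TGM2, APCDD1 and KRT19. RNA45S5 is the 45S ribosomal RNA precursor, which has no poly(A) tail, and it took 2.69% to 3.50% of counts in SW480 and 2.38% to 2.40% in CONTROL. KRT5, a basal keratin gene, stood at 5969, 5831 and 5876 CPM in SW480 against 3741, 3790.4 and 3639 CPM in CONTROL (−0.66), and TGM2, a transglutaminase gene, at 3937, 3639.6 and 3874 CPM in SW480 against 2629, 2717 and 2654 CPM in CONTROL (−0.52).

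**Figure D1:**
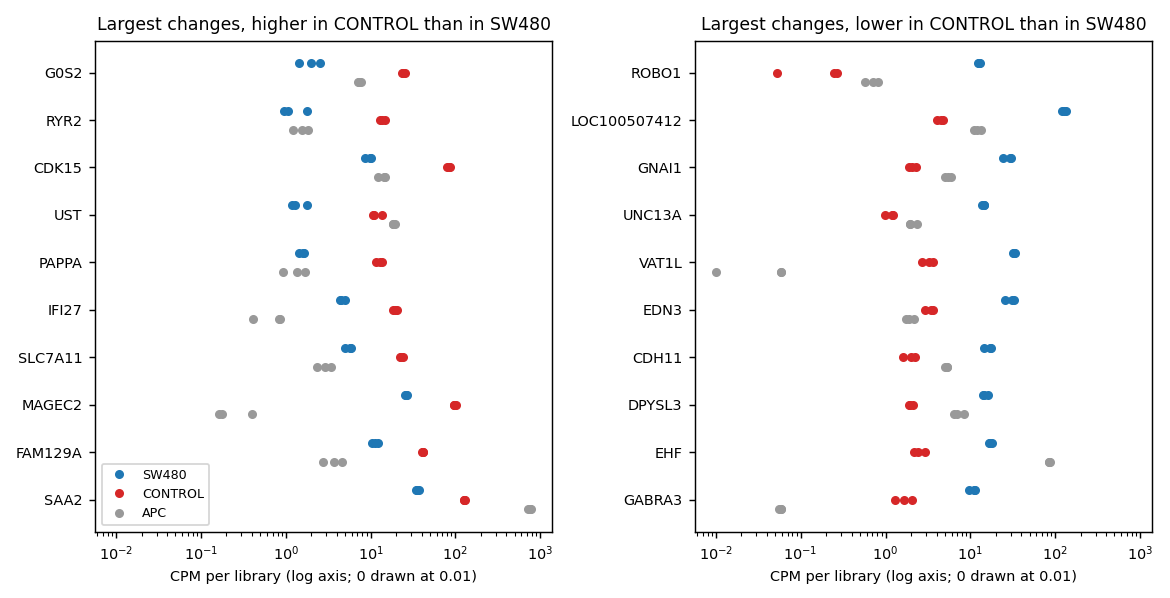
CPM of each library (log axis, 3 points per group) for the 10 genes with the largest rise and the 10 with the largest fall between SW480 and CONTROL among genes with a mean of at least 10 CPM in the higher group; a value of 0 is drawn at 0.01 CPM. The red CONTROL points lie apart from the blue SW480 points for all 20 genes, a condition of their choice, while the grey APC points fall on either side.

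Genes of the integrated stress response were higher in CONTROL. In this response, phosphorylation of the initiation factor eIF2 lowers general translation and raises translation of ATF4, a transcription factor that turns on genes for amino acid synthesis, amino acid uptake and tRNA charging. Of 34 listed genes 32 were tested, and 26 were higher and 2 lower, beside 25.3% and 24.7% of all genes. Their median log2 fold change was 0.57. ASNS, asparagine synthetase, stood at 61.9, 71.2 and 61.9 CPM in SW480 against 219, 209 and 209.6 CPM in CONTROL, a rise of 1.71 (SE 0.06, edgeR adjusted p = 2.0e-14). DDIT3, which encodes the transcription factor CHOP, stood at 14.4, 17.6 and 17.6 CPM in SW480 against 46.7, 43.6 and 44.8 CPM in CONTROL (1.45, adjusted p = 2.9e-17). SLC7A11, the cystine importer, was measured at 5.01, 5.95 and 5.69 CPM in SW480 against 24.1, 22.2 and 22.8 CPM in CONTROL (2.05, adjusted p = 1.8e-18). In each of these genes every CONTROL library was above every parental library, as for 28.5% of all genes. For SLC7A11 this was a condition of its choice. The APC line had 55.3, 62.8 and 67.0 CPM of ASNS, 4.62, 5.09 and 6.25 CPM of DDIT3 and 3.46, 2.89 and 2.34 CPM of SLC7A11, in each case not above the parental range. CEBPB, another listed gene, was above that range, at 46.3, 42.2 and 39.6 CPM in the APC line against 20.9, 15.6 and 16.1 CPM in SW480. The cause of these values was not tested.

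A motif that C/EBP-ATF dimers such as ATF4 bind lay in the promoters of some of these genes. The letters TGATGNAA were searched on both strands of the 250 bases before each start in the RefSeq promoter table of build GRCh38.p14, which held a window for 21 of the 26 higher genes. The motif was found in 4 of them, and in 2.21% of the 11216 tested genes with a window (3.14% of all 35116 windows). The 4 windows are shown, with the match in capitals. It lay 68 bases before the start of ASNS (chr7:97872409-97872658, minus strand), 42 before that of CEBPG (chr19:33373863-33374112, plus strand), 209 before that of CHAC1, as its reverse complement (chr15:40953221-40953470, plus strand), and 16 before that of JDP2 (chr14:75427772-75428021, plus strand). A match describes the letters of the window only.
ASNS: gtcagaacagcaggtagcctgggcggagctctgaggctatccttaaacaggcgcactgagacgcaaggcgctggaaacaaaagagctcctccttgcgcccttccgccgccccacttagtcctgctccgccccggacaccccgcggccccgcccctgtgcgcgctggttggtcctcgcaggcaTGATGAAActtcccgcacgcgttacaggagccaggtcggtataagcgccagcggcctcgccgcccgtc
CEBPG: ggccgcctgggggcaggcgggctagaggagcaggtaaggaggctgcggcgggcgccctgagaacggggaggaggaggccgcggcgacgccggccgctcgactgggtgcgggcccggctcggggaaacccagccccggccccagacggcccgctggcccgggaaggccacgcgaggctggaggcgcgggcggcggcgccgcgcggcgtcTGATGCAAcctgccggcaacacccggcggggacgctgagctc
CHAC1: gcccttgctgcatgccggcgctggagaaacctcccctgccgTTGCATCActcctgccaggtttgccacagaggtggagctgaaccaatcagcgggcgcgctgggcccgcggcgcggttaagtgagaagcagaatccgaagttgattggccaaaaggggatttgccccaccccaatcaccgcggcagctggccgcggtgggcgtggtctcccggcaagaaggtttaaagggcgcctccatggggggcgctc
JDP2: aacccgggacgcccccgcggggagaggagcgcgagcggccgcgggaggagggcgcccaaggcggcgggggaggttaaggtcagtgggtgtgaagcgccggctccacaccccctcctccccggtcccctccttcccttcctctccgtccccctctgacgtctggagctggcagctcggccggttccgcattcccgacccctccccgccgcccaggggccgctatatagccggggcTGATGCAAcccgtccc

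The genes whose windows are shown moved by different amounts. CEBPG, a C/EBP family member, stood at 61.5, 64.2 and 61.2 CPM in SW480 against 91.8, 91.1 and 93.8 CPM in CONTROL (0.57). CHAC1, which degrades glutathione, stood at 2.69, 3.80 and 3.44 CPM in SW480 against 6.18, 4.85 and 6.44 CPM in CONTROL (0.82), and JDP2, an AP-1 repressor, at 13.6, 13.7 and 12.7 CPM in SW480 against 21.4, 21.9 and 22.4 CPM in CONTROL (0.72). Their CONTROL and parental libraries did not overlap.

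Enzymes of serine, glycine and folate metabolism were part of this group. ALDH1L2, a mitochondrial folate enzyme, rose from a low level, 1.35, 1.18 and 1.13 CPM in SW480 against 5.75, 5.10 and 6.08 CPM in CONTROL (2.21). SHMT2, mitochondrial serine hydroxymethyltransferase, stood at 206, 192 and 202 CPM in SW480 against 351, 366 and 348 CPM in CONTROL (0.83). PHGDH, PSAT1 and PSPH, the enzymes that make serine, had log2 fold changes of 0.37, 0.65 and 0.37, and MTHFD2 one of 0.62. All of them were called higher.

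Signalling and feedback members changed by different amounts. ATF4 transcript itself stood at 281, 281 and 286 CPM in SW480 against 363, 345 and 345 CPM in CONTROL (0.31). GDF15, a secreted stress cytokine, rose by 1.11, TRIB3, a pseudokinase that holds ATF4 in check, by 0.73, and PPP1R15A, which recruits the phosphatase of eIF2, by 0.26. TRIB3 lies on chromosome 20, where most genes were lower. The amino acid transporters were divided: SLC7A1 rose by 0.20 and SLC3A2 by 0.24, SLC38A2 fell by 0.32, and SLC7A5 (0.03) and SLC1A5 (0.06) were not called, though SLC1A5 was without SW480 replicate 1. CEBPB fell by 0.40. ATF3 (0.16) and CTH (0.14) were not called either, though ATF3 was with counts summed over transcripts.

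The aminoacyl-tRNA synthetases and their scaffold proteins, which charge tRNAs with amino acids, were nearly all higher. Of 23 listed genes 22 were tested, and 20 were higher and 1 lower, with a median of 0.36. YARS, the tyrosyl enzyme, stood at 116, 116 and 120.5 CPM in SW480 against 199, 196 and 196 CPM in CONTROL (0.75, edgeR adjusted p = 1.4e-17). GARS, the glycyl enzyme, stood at 236, 235 and 240.3 CPM in SW480 against 405, 391 and 394 CPM in CONTROL (0.74), and MARS, the methionyl enzyme, at 169.6, 174 and 181 CPM in SW480 against 297, 296 and 278 CPM in CONTROL (0.73). Parental and CONTROL libraries were well apart in all 3. IARS, AARS, WARS and CARS rose by 0.62, 0.58, 0.48 and 0.44. Among the smaller rises, RARS and HARS rose by 0.15 and 0.14, and FARSA was not called (0.08). LARS and DARS were also called higher, but less firmly. The call of LARS was lost by DESeq2 (adjusted p = 0.073), in the fit of 6 libraries (edgeR adjusted p = 0.060) and in further alternatives. That of DARS was lost by limma with pseudocount 1 (adjusted p = 0.056) and without SW480 replicate 2 (edgeR adjusted p = 0.0998), among others. QARS, the glutaminyl enzyme and the only member on chromosome 3, was the 1 that fell, from 196, 197 and 199 CPM to 149, 149 and 147 CPM (−0.41). All 20 higher genes belonged to the 21 tested outside chromosomes 3 and 20. The higher genes were not set against the genes near them, and some other chromosomes leaned higher, as given below.

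Endoplasmic reticulum chaperones and unfolded protein response genes had a median close to that of all genes. All 28 were tested, with 9 higher, 4 lower and a median of 0.02. DNAJC3, a chaperone and eIF2 kinase inhibitor, rose by 0.52 and XBP1, the transcription factor of the IRE1 arm, by 0.36. EDEM1 and MANF, both on chromosome 3, fell by 0.67 and 0.45. Heat shock proteins and co-chaperones of the cytosol and mitochondria had 18 of 27 tested members higher and 3 lower, with a median of 0.18, and 5 were lower by limma fitted to log2(RPKM + 1), where 1 is the pseudocount. HSPD1, the mitochondrial chaperonin, stood at 1419, 1478 and 1576 CPM in SW480 against 2061, 2112 and 2101 CPM in CONTROL (0.49). DNAJB1 and DNAJB2 were among the 3 lower members (−0.23 and −0.45).

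NRF2 is a transcription factor that is kept low by KEAP1 and that, when stabilised, turns on genes of glutathione synthesis, quinone detoxification and iron storage. Of its 45 listed targets and glutathione genes 42 were tested, and 29 were higher and 4 lower, with a median of 0.33. FTL, the ferritin light chain, stood at 1595, 1536 and 1687 CPM in SW480 against 2417, 2607 and 2478 CPM in CONTROL (0.64, edgeR adjusted p = 5.9e-15). TXNRD1, thioredoxin reductase, stood at 323, 304 and 351 CPM in SW480 against 549, 606 and 581 CPM in CONTROL (0.83), and NQO1, a quinone reductase, at 333, 335 and 370.5 CPM in SW480 against 536, 558 and 535 CPM in CONTROL (0.65). No CONTROL library of these genes was within the parental range. OSGIN1, MGST1, GSTO1 and GCLC, the catalytic subunit of glutathione synthesis, rose by 0.99, 1.42, 0.74 and 0.50. The 4 lower members were GPX1 and TKT, on chromosome 3 (−0.38 and −0.19), and GCLM and GPX4 (−0.18 and −0.10). The call of GPX4 was lost by DESeq2 (adjusted p = 0.093), with the replicate block (edgeR adjusted p = 0.051) and without replicate 1 or 3 of either group (edgeR adjusted p = 0.072 to 0.23). KEAP1 was not called (−0.05), and NFE2L2, the gene of NRF2 itself, rose by 0.28.

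The UGT1A locus encodes glucuronosyltransferases whose first exons differ and whose remaining exons are shared. Its 9 tested entries had nearly the same values, 8.58 to 8.85 CPM in SW480 and 25.2 to 25.7 CPM in CONTROL on average, with log2 fold changes of 1.54 to 1.56. They share reads and count as 1 locus. UGT1A1 stood at 9.10, 8.04 and 8.65 CPM in SW480 against 26.6, 24.4 and 24.8 CPM in CONTROL and at 1.59, 1.85 and 1.34 CPM in the APC line.

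The core letters of the antioxidant response element, TGACNNNGC, were searched in the same way. They were found in 6 of the 22 higher NRF2 list genes that had a window, GSTA4, GSTO1, GSTP1, PGD, TXNRD1 and UGT1A6, and in 15.9% of tested genes with a window (10.9% of all windows). So short a motif is common. The windows of GSTP1 (chr11:67583562-67583811, plus strand, match 66 bases before the start) and of 1 start of TXNRD1 (chr12:104215529-104215778, plus strand, match 99 bases before the start) are shown to give the match its context, in build GRCh38.p14 with the match in capitals.
GSTP1: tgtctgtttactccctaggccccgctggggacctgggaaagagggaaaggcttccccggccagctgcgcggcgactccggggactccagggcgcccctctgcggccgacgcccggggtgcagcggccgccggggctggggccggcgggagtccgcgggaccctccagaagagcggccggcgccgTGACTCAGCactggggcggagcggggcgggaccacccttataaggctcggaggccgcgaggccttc
TXNRD1: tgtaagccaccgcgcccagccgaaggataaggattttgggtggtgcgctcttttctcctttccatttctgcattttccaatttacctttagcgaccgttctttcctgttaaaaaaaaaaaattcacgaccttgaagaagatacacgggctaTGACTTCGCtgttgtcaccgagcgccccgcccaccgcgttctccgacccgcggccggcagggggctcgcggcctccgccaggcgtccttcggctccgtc
GSTP1, a glutathione transferase, rose by 0.27, less than TXNRD1.

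Components of the translation machinery were also higher, by smaller amounts. Cytosolic ribosomal proteins had 50 of 77 tested genes higher and 7 lower, with a median of 0.15. The 7 lower genes all lay on chromosome 3 or 20, and elsewhere 49 of 69 were higher and 0 lower (by edgeR, and by the same fit without the genes of those chromosomes). RPL23 stood at 721, 778 and 817 CPM in SW480 against 1147, 1188 and 1177 CPM in CONTROL (0.60, edgeR adjusted p = 5.2e-14) and RPL19 rose by 0.56. RPL15, on chromosome 3, stood at 1084, 1004 and 1027 CPM in SW480 against 638, 648 and 657 CPM in CONTROL (−0.68), and RPL24, also on chromosome 3, fell by 0.62. The lower ribosomal protein genes thus shared those chromosomes.

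Other parts of the machinery gave like counts. Among translation factors 28 of 42 tested genes were higher and 3 lower (median 0.17), and among nucleolar ribosome biogenesis genes 27 of 39 were higher and 2 lower (median 0.21). EIF4B, which assists the helicase of initiation, stood at 465, 499 and 519 CPM in SW480 against 693, 694 and 687 CPM in CONTROL (0.48). EEF1A2, an elongation factor gene on chromosome 20, fell by 0.86, while EEF1A1 was not called (0.04). NOLC1, a nucleolar phosphoprotein, rose by 0.43 and NOP56, on chromosome 20, fell by 0.30. Mitochondrial ribosomal proteins had 32 of 57 higher and 3 lower (median 0.17), and the nuclear-encoded respiratory chain 27 of 57 higher and 3 lower (median 0.11). Of the 2851 genes in the highest of the 5 groups by mean level, 1197 were higher and 603 lower. The lists were not matched for level, and the part of level in their counts was not tested. By limma with pseudocount 0.1, 5 mitochondrial ribosomal protein genes were lower. ATP5B, a subunit of ATP synthase, stood at 925, 962 and 972 CPM in SW480 against 1439, 1467 and 1472 CPM in CONTROL (0.61).

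Wnt target genes were divided, with more of them lower in CONTROL. Of 42 listed genes 34 were tested, and 19 were lower and 11 higher, with a median of −0.31. Several that fell furthest encode secreted or membrane inhibitors of the pathway. DKK1, an inhibitor that binds the LRP co-receptors, stood at 49.4, 51.2 and 56.1 CPM in SW480 against 18.3, 20.3 and 17.1 CPM in CONTROL (−1.50, edgeR adjusted p = 8.4e-18). APCDD1, a membrane inhibitor, stood at 903, 867 and 804 CPM in SW480 against 413, 379 and 393 CPM in CONTROL (−1.12), and NOTUM, which removes the lipid from Wnt proteins, at 62.9, 61.7 and 51.4 CPM in SW480 against 28.2, 28.2 and 30.4 CPM in CONTROL (−1.02). In these 3 genes the highest CONTROL library was below the lowest parental library. The APC line was lower still for APCDD1, at 55.5, 52.1 and 54.1 CPM, and for DKK1, at 7.09, 6.13 and 5.26 CPM.

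Several transcription factors among the targets were lower, though MYC was not. SP5 stood at 131, 96.2 and 91.1 CPM in SW480 against 53.7, 54.9 and 54.2 CPM in CONTROL (−0.97), with 1 parental library above the other 2, and ASCL2, a stem cell factor, at 31.1, 23.6 and 22.8 CPM in SW480 against 15.2, 14.01 and 13.1 CPM in CONTROL (−0.88). SOX9 fell by 0.68, PROX1, from a low level, by 2.10, and TCF7 by 0.32. AXIN2 and NKD1, feedback inhibitors read as measures of pathway activity, fell by 0.39 and 0.37, and BAMBI by 0.70. The 11 members that were higher included JAG1, a Notch ligand, at 20.5, 22.6 and 22.9 CPM in SW480 against 34.6, 36.8 and 32.8 CPM in CONTROL (0.66). JAG1 lies on chromosome 20 and moved against most genes of it. EPHB2 rose by 0.45, CD44 by 0.39 and MYC by 0.32.

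Among the destruction complex and the partners of beta-catenin, 31 genes were tested, 12 lower and 3 higher, and only 1 was higher by DESeq2, by limma or without SW480 replicate 3. TLE3, a co-repressor of TCF factors, stood at 160.3, 146 and 151 CPM in SW480 against 80.6, 90.3 and 83.4 CPM in CONTROL (−0.85), and its relative TLE1 at 18.0, 17.4 and 16.1 CPM in SW480 against 28.8, 28.0 and 25.1 CPM in CONTROL (0.67), in opposite directions. CTNNB1, the gene of beta-catenin, is described with chromosome 3.

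Genes that the ERK pathway induces as its own brakes were mostly lower. Of 24 listed genes 23 were tested, and 16 were lower and 1 higher, with a median of −0.28, and 2 were higher without CONTROL replicate 3, with RLE size factors or with no filter on low counts. DUSP4, a phosphatase of ERK, stood at 29.8, 27.6 and 26.7 CPM in SW480 against 11.01, 12.6 and 11.8 CPM in CONTROL (−1.25, edgeR adjusted p = 1.5e-15). SPRY4, a Sprouty inhibitor, stood at 181, 199 and 195 CPM in SW480 against 120.0, 117 and 111 CPM in CONTROL (−0.73), and DUSP6, a cytoplasmic ERK phosphatase, at 711, 702 and 738 CPM in SW480 against 547, 500.5 and 516 CPM in CONTROL (−0.46). All CONTROL values were below the parental ones. AP-1 and immediate early genes had 12 of 26 tested members lower and 3 higher, with EGR2 at −1.77 and JUNB at −0.58. Of growth factor genes upstream, FGF19 stood at 169, 155 and 149.8 CPM in SW480 against 48.3, 47.6 and 44.3 CPM in CONTROL (−1.76), while EGFR stood at 78.5, 79.5 and 85.6 CPM in SW480 against 125, 127 and 128 CPM in CONTROL (0.65) and FGFR2 rose by 1.20.

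**Figure D2:**
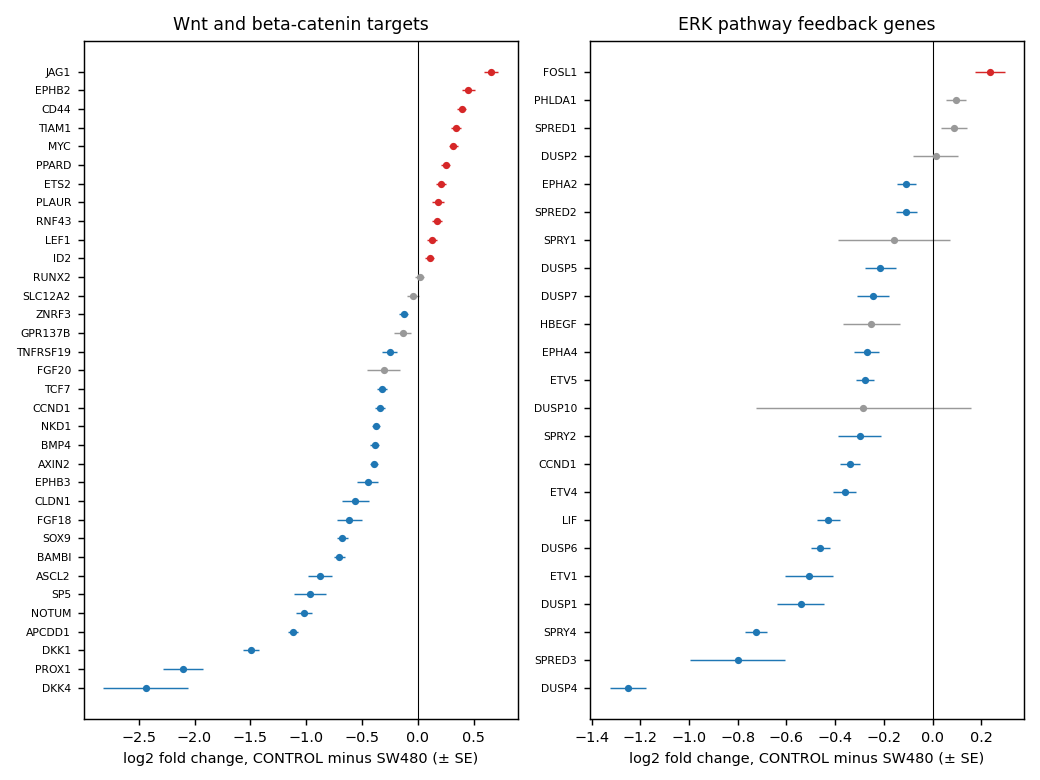
Log2 fold change (CONTROL minus SW480, bars show the SE of the fit, 3 libraries per group) of the tested members of the Wnt target list and the ERK feedback list; red members were called higher, blue lower and grey not called. The Wnt targets spread from DKK4 and PROX1 at the low end to JAG1 at 0.66, and 16 of the 23 ERK feedback genes are blue.

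Acute phase genes were among the higher members of the NF-kappaB list. Of 47 listed genes 35 were tested, 12 were higher and 1 lower, with a median of 0.19, by edgeR. Lower genes numbered 2 without SW480 replicate 2 or without CONTROL replicate 2, and 4 and 5 by limma on log2 RPKM (pseudocount 1 and 0.1). SAA1, the serum amyloid A gene, stood at 105, 109 and 108 CPM in SW480 against 375, 390.0 and 374 CPM in CONTROL (1.82, edgeR adjusted p = 4.0e-27). It is nearly identical to SAA2, so reads can be split between them. LCN2, which binds bacterial siderophores, stood at 3.50, 3.64 and 4.67 CPM in SW480 against 9.45, 8.97 and 10.6 CPM in CONTROL (1.30), and ICAM1, an adhesion molecule, rose by 0.60. The APC line had more of each, 2186, 2323 and 2187 CPM of SAA1 and 118, 117 and 119.8 CPM of LCN2. CCL2, CXCL1, CXCL2, CXCL3, TNFAIP3 and NFKBIA, which NF-kappaB induces, were not called by edgeR, with log2 fold changes of −1.34, 0.19, −0.09, −0.67, −0.02 and 0.04. CCL2 was called lower by limma (adjusted p = 0.041 with pseudocount 1 and 0.0043 with 0.1). The gene called lower by edgeR, NFKBIZ, lies on chromosome 3 (−0.61).

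Interferon response genes moved both ways, with 15 of 43 tested members higher (34.9%) and 8 lower (18.6%), beside 25.3% and 24.7% of all genes. IFI27, a mitochondrial interferon-induced protein, stood at 4.95, 4.39 and 4.51 CPM in SW480 against 19.5, 20.7 and 18.7 CPM in CONTROL (2.08) and at 0.825, 0.868 and 0.409 CPM in the APC line. IFITM3, which restricts virus entry, stood at 196, 177 and 182 CPM in SW480 against 380.2, 389 and 372 CPM in CONTROL (1.04), and BST2, which tethers virus particles, at 35.3, 36.2 and 35.6 CPM in SW480 against 72.3, 78.1 and 75.6 CPM in CONTROL (1.08). In all 3 genes every CONTROL plate lay above the parental plates, for IFI27 a condition of its choice. IRF7, a transcription factor of the response, fell by 0.67 and HERC5, the ligase of ISG15, by 2.05 from a low level. Antigen presentation had 1 gene higher, B2M (0.21), and 1 lower, ERAP1 (−0.21), of 16 tested by edgeR, and 2 were lower by limma with pseudocount 0.1.

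Keratins, the intermediate filament proteins of epithelia, were mostly lower. Of 25 listed genes 19 were tested, and 13 were lower and 3 higher, with a median of −0.53. KRT19, a keratin of simple epithelia, stood at 850.5, 715 and 792 CPM in SW480 against 372, 381 and 365 CPM in CONTROL (−1.08, edgeR adjusted p = 1.4e-10), and KRT81, a hair keratin, at 88.5, 82.0 and 82.8 CPM in SW480 against 24.2, 25.2 and 23.4 CPM in CONTROL (−1.80). KRT17, KRT6A and KRT86 changed by −2.45, −1.14 and −1.18. KRT8 and KRT18, the pair that fills simple epithelial cells, rose by 0.16 and 0.28, and KRT13 stood at 3.28, 3.00 and 2.90 CPM in SW480 against 10.0, 10.3 and 9.92 CPM in CONTROL (1.72). KRT6A, KRT6B and KRT6C, and KRT81, KRT83 and KRT86, have similar sequences, and reads can be split between them.

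Junction genes were mixed, 13 lower (30.2%) and 9 higher (20.9%) of 43 tested, near the 24.7% and 25.3% of all genes. GJB1, a gap junction connexin gene, stood at 54.9, 50.9 and 53.5 CPM in SW480 against 19.8, 18.0 and 17.9 CPM in CONTROL (−1.51, edgeR adjusted p = 8.1e-20), and GJB2 fell by 1.14. TJP1, a tight junction scaffold, rose by 0.41, and ESRP1, an epithelial splicing factor, by 1.28 from 1.72, 1.34 and 1.02 CPM. CDH1, the gene of E-cadherin, was called higher at 0.28 (adjusted p = 0.042), yet its libraries overlapped, 8.13, 7.23 and 6.34 CPM in SW480 against 9.99, 6.94 and 9.25 CPM in CONTROL, and the call was lost in the fit of 6 libraries. It was lost as well without SW480 replicate 2 or 3 (adjusted p = 0.087 and 0.20) and without CONTROL replicate 1 or 3 (0.26 and 0.15). Of mesenchymal genes, 11 of 23 tested were lower and 7 higher. CDH11 stood at 14.4, 17.0 and 17.6 CPM in SW480 against 1.99, 2.21 and 1.61 CPM in CONTROL and SPARC, a matrix protein, at 36.2, 35.8 and 33.6 CPM in SW480 against 14.7, 14.5 and 13.5 CPM in CONTROL (−1.31). NT5E, the ecto-enzyme CD73, stood at 49.4, 44.9 and 53.01 CPM in SW480 against 86.7, 87.8 and 89.8 CPM in CONTROL (0.84), and SNAI2, a repressor of E-cadherin, rose by 1.20.

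Integrins, laminins and collagens had 19 of 42 tested members lower and 10 higher by edgeR, and 6 were higher by limma with either pseudocount. LAMB3, a laminin chain gene, stood at 20.6, 20.9 and 22.3 CPM in SW480 against 61.2, 62.8 and 63.8 CPM in CONTROL (1.56, edgeR adjusted p = 9.3e-22), and LAMA3, another laminin chain gene, rose by 0.26. COL9A3, a collagen chain gene on chromosome 20, stood at 386, 323 and 293 CPM in SW480 against 101, 98.4 and 99.9 CPM in CONTROL (−1.74), and LAMB2, on chromosome 3, fell by 0.97. Matrix proteases and their inhibitors had 13 of 33 lower and 7 higher. PLAT, tissue plasminogen activator, stood at 14.2, 15.7 and 16.4 CPM in SW480 against 5.64, 6.27 and 5.66 CPM in CONTROL (−1.40), and PLAU, urokinase, rose by 0.44.

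Guidance genes of the ephrin, semaphorin, Slit and netrin families were mostly lower, 27 of 50 tested, with 5 higher and a median of −0.31. Besides ROBO1, the falls included PLXNB3, a semaphorin receptor, at 30.3, 32.3 and 29.5 CPM in SW480 against 13.7, 15.4 and 12.9 CPM in CONTROL (−1.14), EPHB6, an Eph receptor without kinase activity, at 32.5, 30.0 and 27.2 CPM in SW480 against 13.7, 13.1 and 14.1 CPM in CONTROL (−1.13), and SEMA3A, a secreted semaphorin, by 2.13. NRP2, a co-receptor of semaphorins and VEGF, went the other way, 41.7, 40.3 and 40.1 CPM in SW480 against 109, 108 and 111 CPM in CONTROL (1.42, edgeR adjusted p = 1.9e-22). SLIT1, a ligand of ROBO receptors, rose by 0.74. SLIT1 and ROBO1 thus had opposite signs. The ligands SLIT2 and SLIT3 were too low to be tested, with total counts of 4 and 5 in SW480 against 1 and 1 in CONTROL.

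Clustered protocadherins are cell surface adhesion proteins encoded by variable first exons that are spliced to shared exons. Of the 39 tested entries 38 were lower and 0 higher by edgeR, with a median of −0.63, but the entries share reads. The 22 gamma entries ran from 22.6 to 38.9 CPM in SW480 and 14.8 to 25.0 CPM in CONTROL, with log2 fold changes of −0.67 to −0.61. PCDHGC3 stood at 38.8, 39.3 and 38.7 CPM in SW480 against 25.8, 26.2 and 23.1 CPM in CONTROL (−0.64). The 15 alpha entries were at 0.412 to 0.716 CPM in SW480 and 0.129 to 0.220 CPM in CONTROL, where 3 counts are worth 0.156 to 0.184 CPM. In the fit of 6 libraries, without the APC line, only 25 entries passed the filter on low counts, and all 25 were lower. The count of lower entries was 24 by limma fitted to log2(RPKM + 1), and 27 without SW480 replicate 1 or without CONTROL replicate 1. The entries that lost their call by limma or without 1 of these libraries were alpha entries.

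S phase and mitosis genes showed little common movement, with 17 of 53 tested higher and 10 lower and a median of 0.04. CDC6, which licenses origins, stood at 144, 147 and 156 CPM in SW480 against 215, 217 and 226 CPM in CONTROL (0.56), and TOP2A, a topoisomerase of mitosis, at 744, 779 and 789.9 CPM in SW480 against 1085, 1039 and 1079 CPM in CONTROL (0.47). E2F1 and PCNA, both on chromosome 20, fell by 0.56 and 0.48, and of the 10 lower genes 5 lay outside chromosomes 3 and 20. Cell cycle inhibitors and p53 targets had 18 of 35 tested members lower and 6 higher, with a median of −0.17. CDKN1A, the gene of p21, stood at 94.5, 96.3 and 91.2 CPM in SW480 against 82.9, 75.7 and 74.6 CPM in CONTROL (−0.27), RB1, the retinoblastoma gene, fell by 0.35, and FAS, a death receptor, rose by 0.44.

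Chromatin genes leaned lower. DNA methylation, TET and Polycomb genes had 20 of 39 tested members lower and 4 higher, of which 2 were higher without CONTROL replicate 3. CBX2, a Polycomb reader, stood at 33.0, 33.5 and 33.6 CPM in SW480 against 21.5, 23.3 and 23.95 CPM in CONTROL (−0.54) and SUZ12, a core subunit of its partner complex, fell by 0.32, while EZH2, the methyltransferase of that complex, rose by 0.23. Replication-dependent histone genes, whose main transcripts end without a poly(A) tail, had 14 of 35 tested members lower and 1 higher, with a median of −0.45, and 2 were higher without CONTROL replicate 1. HIST1H1C stood at 257, 212 and 231 CPM in SW480 against 159.7, 159.7 and 158 CPM in CONTROL (−0.55). Its fall went with that of the 45S precursor, another RNA without a tail, and any part of library preparation in it was not tested.

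Cancer-testis genes, normally silent outside the germ line, included some of the largest differences. Of 62 listed genes 10 were tested, 4 were higher and 1 lower, and 2 were lower by limma or without CONTROL replicate 1. MAGEC2 stood at 26.9, 26.3 and 25.2 CPM in SW480 against 102, 97.0 and 96.4 CPM in CONTROL (1.91, edgeR adjusted p = 1.1e-24) and its relative MAGEC1, near the detection limit in SW480, at 0.323, 0.375 and 0.376 CPM in SW480 against 1.66, 2.15 and 1.97 CPM in CONTROL (2.40). TKTL1, a transketolase-like gene, was almost lost, 8.13, 7.18 and 6.50 CPM in SW480 against 0.161, 0.307 and 0.156 CPM in CONTROL (−5.11). PASD1 rose by 0.17, and PRAME (0.59), TEX15 (−0.06) and PIWIL1 (0.13) were not called by edgeR. SPANXB1 was called higher, but not by DESeq2 (adjusted p = 0.079). By edgeR its call was lost with summed transcript counts (adjusted p = 0.19) and without SW480 replicate 3 (0.063). SYCP3, not called in the main fit, was called higher by limma with either pseudocount (adjusted p = 0.019 and 0.020). It was also called by edgeR with summed counts (adjusted p = 0.016) or without SW480 replicate 3 (0.025). PRAME was called higher by limma with pseudocount 1 (adjusted p = 0.029) and by edgeR with counts summed over transcripts (adjusted p = 0.016) or without SW480 replicate 2 (adjusted p = 0.028).

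Other lists were divided between both directions, as were all genes, of which 25.3% were higher and 24.7% lower. Hypoxia and glycolysis genes had 16 of 43 higher and 11 lower, HOX genes 10 of 34 higher and 9 lower, fatty acid genes 12 of 38 higher and 11 lower, and Notch pathway genes 6 of 27 higher and 5 lower. Cholesterol synthesis genes had 3 of 25 higher and 5 lower, and 6 higher without SW480 replicate 2 and 5 with no filter on low counts. Within these lists HK2, a hexokinase, rose by 0.68 and SLC2A3, a glucose transporter, fell by 0.57. HOXA11 rose by 1.04 and HOXB8 fell by 0.83. From lists not described above, ABCB1, the multidrug efflux pump, stood at 22.9, 22.0 and 21.5 CPM in SW480 against 11.1, 9.28 and 10.1 CPM in CONTROL (−1.12), and BMP7, a BMP ligand on chromosome 20, fell by 0.68.

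**Figure D3:**
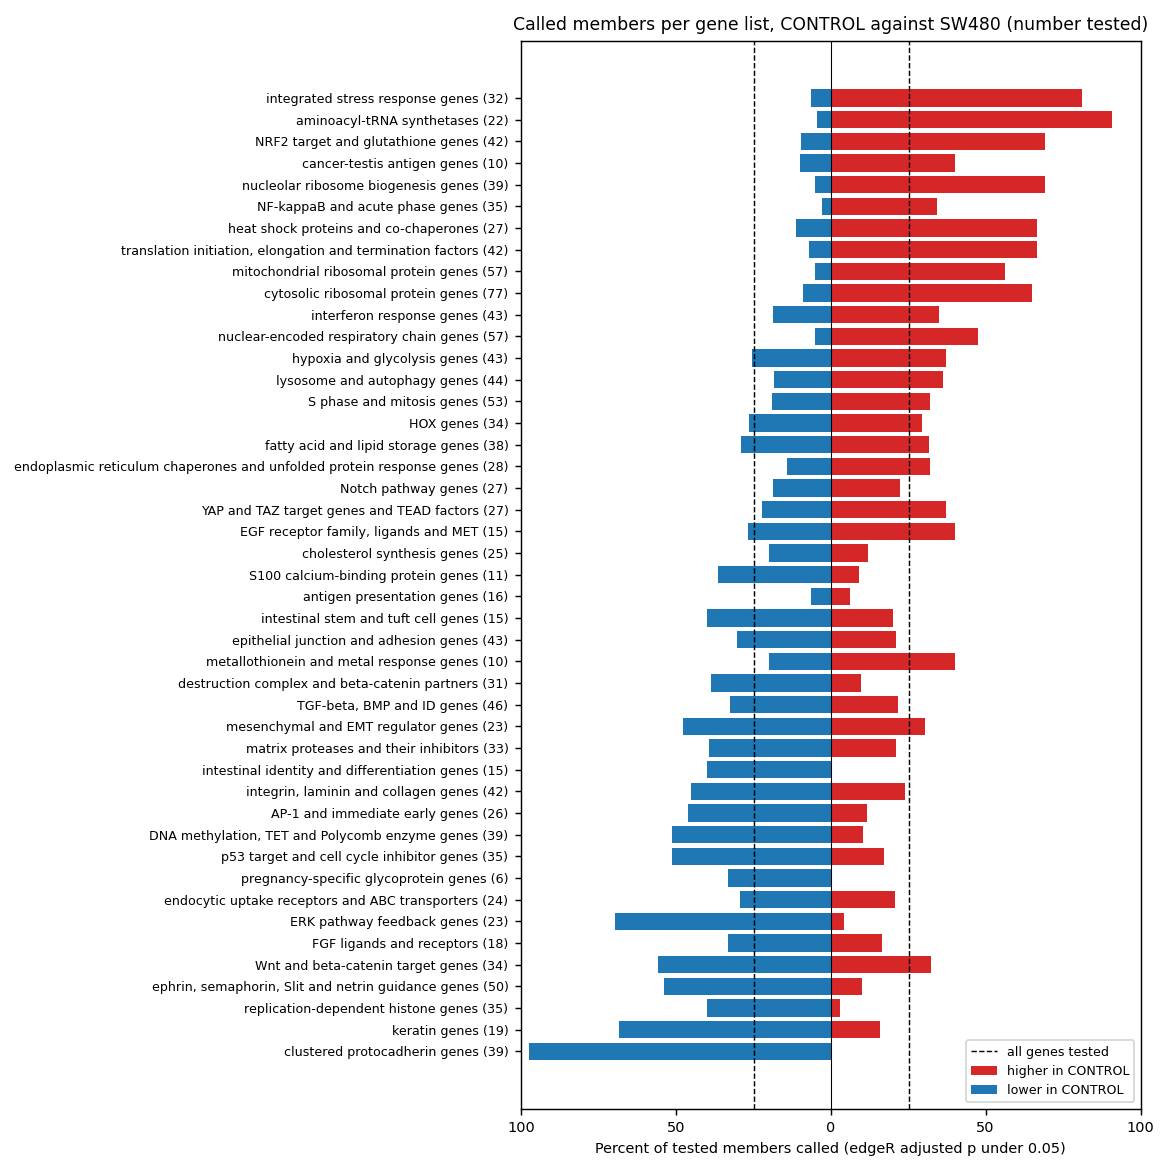
Percent of the tested members of each of 45 gene lists (number tested in brackets) called higher in CONTROL (red, to the right) or lower (blue, to the left) by edgeR; dashed lines mark the 25.3% and 24.7% of all genes tested. Aminoacyl-tRNA synthetases and integrated stress response genes reach furthest to the right, and protocadherins, ERK feedback and keratin genes furthest to the left.

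Chromosomes 3 and 20 had the lowest medians. Of the 402 tested genes of chromosome 20, 312 (77.6%) were lower and 18 higher, with a median log2 fold change of −0.37. Of the 784 of chromosome 3, 423 (54.0%) were lower and 107 higher, with a median of −0.27. The medians of the other 21 chromosomes lay between −0.09 and 0.14, and 8.63% to 32.8% of their genes were lower. Chromosomes 21, 7 and 14 leaned the other way, with medians of 0.14, 0.12 and 0.11. On these, 48.2%, 41.7% and 41.1% of genes were higher, beside 25.3% of all genes. Of the genes with a stress motif window shown, ASNS lies on chromosome 7, JDP2 on 14, CHAC1 on 15 and CEBPG on 19. Both chromosomes together held 1186 genes, 8.32% of those tested, but 735 of the lower genes (20.9%) and 125 of the higher genes (3.46%). Of the 13069 genes elsewhere, 3486 were higher and 2785 lower. A refit of those genes alone, which rescales the libraries without chromosomes 3 and 20, called 3155 higher and 3018 lower. In that refit the lower genes of the integrated stress response list numbered 1, of the translation factors 1, of the NRF2 list 2 and of the hypoxia and glycolysis list 7, and the higher genes among the beta-catenin partners 1.

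All 3 CONTROL plates showed these shifts. On the log2(CPM + 0.5) scale, against the mean of the SW480 libraries, the chromosome 3 median was −0.24, −0.24 and −0.25 in CONTROL replicates 1 to 3, and that of chromosome 20 was −0.36, −0.34 and −0.35. Each SW480 library, set against the other 2, had a median between −0.01 and 0.01 on both chromosomes. The spread between plates was thus far smaller than the difference between the groups.

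On chromosome 3 most of the lower genes lay in 1 stretch. Tested genes were taken in gene order in blocks of 25. The first 17 blocks, from TRNT1 to KIAA1524, had medians from −0.73 to −0.19, and of their 425 genes 344 were lower and 9 higher. In the next 14 blocks, from DZIP3 to DLG1, medians ran from −0.10 to 0.13, with 77 of 350 genes lower and 96 higher. On chromosome 20 all 16 blocks were low, with medians from −0.57 to −0.28 and 310 of 400 genes lower. The boundary on chromosome 3 was placed after the values were seen.

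**Figure D4:**
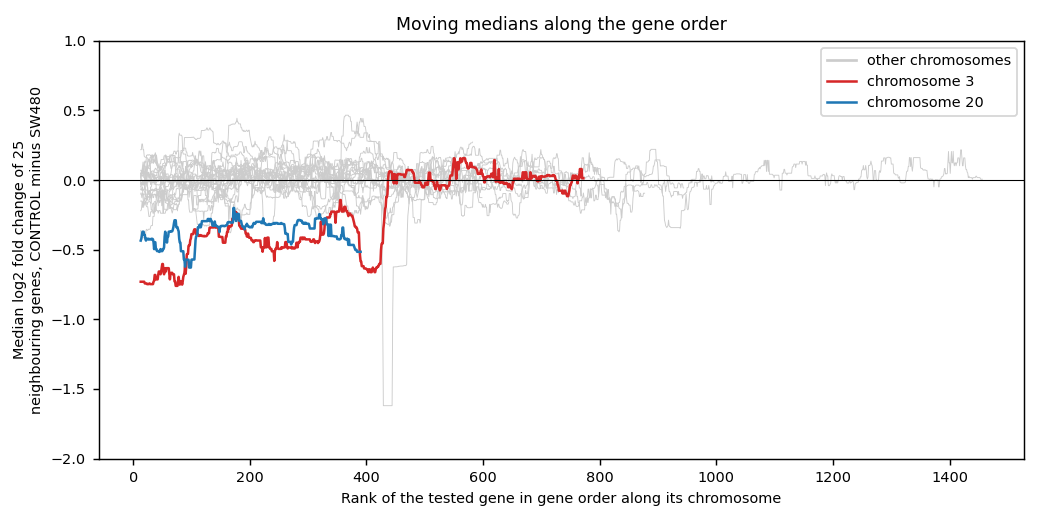
Median log2 fold change (CONTROL minus SW480) of 25 neighbouring tested genes, by rank of the gene along its chromosome, for chromosome 3 (red), chromosome 20 (blue) and the others (grey). Chromosome 20 stays below 0 along its length and chromosome 3 returns to about 0 past rank 425; the deep grey trough is the protocadherin alpha cluster, whose entries share reads.

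CTNNB1 lies in the low stretch of chromosome 3. It stood at 1302, 1405 and 1337 CPM in SW480 against 958, 917 and 938 CPM in CONTROL (−0.52, edgeR adjusted p = 1.2e-13). Its 24 nearest tested genes had a median of −0.34, with 22 lower and 0 higher by edgeR, and 7 of the 24 were below CTNNB1. TRAK1 and ZNF621, which flank it closely, fell by 0.55 and 0.41. The fall of beta-catenin transcript was therefore within the range of its neighbours. For the Wnt targets AXIN2, CCND1 and APCDD1, which lie on other chromosomes, the medians of the 24 neighbours were −0.05, −0.02 and 0.02, beside −0.39, −0.34 and −1.12 for the genes themselves.

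ROBO1 lies in the same stretch and was far below it. Its 24 neighbours had a median of −0.35 with 17 lower and 1 higher, and 0 of them were below ROBO1. GBE1 and CHMP2B, close by, fell by 0.25 and 0.30, and the lowest neighbour, PDZRN3, a ubiquitin ligase gene, stood at 23.7, 21.5 and 21.3 CPM in SW480 against 4.35, 5.04 and 4.78 CPM in CONTROL (−2.23). RPL15 changed about as much as its neighbours, whose median was −0.58.

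Outside chromosomes 3 and 20, some runs of 25 neighbouring genes had high medians. These runs were smaller in size than the lowest runs of chromosome 3, but within the range of sizes of the chromosome 20 blocks (−0.57 to −0.28). The highest were SLFN13 to SOCS7 on chromosome 17, with a median of 0.47 and 18 genes higher and 0 lower, COMMD6 to MBNL2 on chromosome 13, with 0.44 and 20 higher and 1 lower, and SPRYD4 to PIP4K2C on chromosome 12, with 0.44 and 19 higher and 1 lower. RPL23 and RPL19 lie on chromosome 17, but whether they lie inside that run is not given here. Genes named above as higher were not set against their neighbours. How far their rises were shared by the genes around them was not tested. The lowest runs were APBB3 to PCDHAC1 on chromosome 5, at −1.62, where 14 of the 25 entries are protocadherins that share reads, and, on chromosome 3, GRIP2 to SGOL1-AS1 at −0.76 and RAD18 to VHL at −0.75, with 23 and 24 genes lower. Medians of 25 genes were low in parts of other chromosomes too, such as −0.41 near the start of chromosome 1 and −0.38 on chromosome 10.

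Marker genes of cell types were summed per library. Colon carcinoma epithelium markers summed to 5401 to 6043 CPM in SW480 and 6024 to 6320 CPM in CONTROL. At least 1 count was present for 11 of 11, but only 7 passed the filter and were tested. Of these, 3 were higher and 2 lower, with KRT19 among the lower ones (−1.08). Total counts in SW480 and in CONTROL were 0 and 1 for CEACAM5, 1 and 0 for CDX1, 2 and 0 for GPA33, and 6 and 8 for LGALS4. Leukocyte and blood markers summed to 24.8 to 27.1 and 16.6 to 19.9 CPM, with CD3D, MS4A1, PTPRC and TYROBP without counts, and 5 of 8 tested were lower, 3 by DESeq2 or without CONTROL replicate 1. Fibroblast markers summed to 42.7 to 46.9 and 36.3 to 40.6 CPM, with COL3A1, DCN, FAP, LUM, PDPN and POSTN without counts, and endothelial markers to 0.862 to 1.02 and 1.24 to 1.41 CPM, with PECAM1 without counts. Neural markers summed to 128 to 143 CPM in SW480 and 78.2 to 85.3 CPM in CONTROL, with ELAVL3, MAP2, NEFL and STMN2 without counts. Of the 4 tested neural markers, 3 were lower and 1 was not called. Within them CHGA, the neuroendocrine granule protein chromogranin A, stood at 5.28, 5.25 and 4.30 CPM in SW480 against 0.161, 0.246 and 0.208 CPM in CONTROL (−4.56, edgeR adjusted p = 1.2e-15), SYP, synaptophysin, at 7.97, 7.13 and 8.75 CPM in SW480 against 2.63, 2.27 and 2.39 CPM in CONTROL (−1.70), and TUBB3, a neuronal tubulin, fell by 0.65. The part of these marker differences in the other results was not tested.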

How the data were processed

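Polyadenylated RNA of 3 plates per group was sequenced. Raw counts per RefSeq transcript and RPKM values (made by the authors from those counts, the transcript length and 1 constant per library) were the deposited units; the length in bases stood in another deposited column. Per the submitters' processing notes, Trimmomatic, TopHat and GATK were used, without versions, on build hg19. Which tool counted the reads, and with which annotation, is not given in the sources used here. Reads were counted again for every overlapping transcript of a gene, so 1 transcript per gene was used, which left 20878 genes of 39276 transcripts. Gene order and chromosomes came from a RefSeq table of GRCh38.p14 (19959 genes matched by accession and 780 by symbol), another build than that of the counts.

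Genes were tested in R 4.3.3 with edgeR 4.0.16 (TMM, filterByExpr, robust quasi-likelihood fit of all 9 libraries, contrast CONTROL minus SW480, Benjamini-Hochberg adjustment, threshold 0.05). Standard errors were taken from the F statistic, as the log2 fold change over the root of F. In data simulated for this comparison, with 200 of 14255 genes changed, 90.9% of the 2-fold and 88% of the 1.5-fold changes were recovered, and 9 unchanged genes were called. The real comparison differed from that setting, with 50% of genes called and 49.6% of the called genes under 1.25-fold. Rates of the simulation therefore do not describe those calls. An exact permutation test of 3 against 3 cannot give a two-sided p under 0.1. Counts of plates of the same group varied beyond sampling noise (chi-square per degree of freedom 1.36 to 5.61) and were each counted as 1 sample.

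The comparison, the gene lists and the rules for named genes (10 fixed genes, the 10 per direction with the largest change at a mean of at least 10 CPM in the higher group without overlap, the 5 per direction with the largest CPM difference, up to 2 per direction and list by adjusted p, and every measured member of a family list) were chosen with earlier results of these data known. Further members named in the text were chosen after their values were seen. Lists were described by counts and medians, with no test of a list. The alternatives tried were RLE size factors, DESeq2 1.42.0, a fit of 6 libraries, all genes without a filter, a minimum fold of 2, a replicate block, counts summed over transcripts, limma 3.58.1 on log2 RPKM (pseudocount 1 or 0.1), and each library left out in turn. Fits without the RNA45S5 row and without chromosomes 3 and 20 were added after the data were seen.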

Additional observations from a re-analysis of the deposited data

How the results depend on the processing

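No named gene and no run of neighbouring genes changed sign as a called value in the alternatives that were run, but the balance of calls turned: lower genes outnumbered higher ones by limma, without CONTROL replicate 3, with a minimum fold of 2 and in the fit of 6 libraries (3530 higher, 3571 lower). Genes differing numbered 7131 in the main analysis and 223 (86 higher, 137 lower) when the test required a minimum fold of 2. Leaving out each library in turn gave 6185 to 6840 (3060 to 3421 higher, 3125 to 3419 lower). DESeq2 gave 3136 higher and 2952 lower, and limma fitted to log2(RPKM + 1) gave 3120 higher and 3643 lower.

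The labels number plates 1 to 3 in both groups, and the numbers did not pair them: deviations of same-numbered plates correlated at −0.04, −0.07 and −0.02 across genes. With the replicate block 7109 genes were called (3570 higher, 3539 lower).

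For runs of 15 genes in place of 25, the lowest runs on chromosome 3 had medians of −0.73 and −0.76 and the highest run on chromosome 13 one of 0.38. For runs of 51 genes the medians were −0.62 on chromosome 5, −0.68 and −0.71 on chromosome 3, and 0.32, 0.36 and 0.30 on chromosomes 17, 13 and 12. Leaving out each library gave −1.79 to −1.39 on chromosome 5, −0.76 to −0.70 and −0.78 to −0.73 on chromosome 3, and 0.42 to 0.48, 0.43 to 0.46 and 0.39 to 0.46 on chromosomes 17, 13 and 12.

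Of 353 named genes 32 lost and 11 gained a call in at least 1 alternative other than the minimum fold, mostly protocadherin alpha entries and changes near the threshold; the cause was not tested. Depth limits low genes most: 3 counts are worth 0.156 to 0.184 CPM.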
